A study of Mus musculus with 8 samples.

Results

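The mitosis genes are 55 mouse genes whose products carry a cell through division, from entry into mitosis to the separation of the daughter cells. They were taken from a fixed list by gene symbol in the platform's annotation. Each gene was read from its probe set (the group of probes on the array that reports on its RNA) with a single symbol and the highest mean over the arrays. Of the 55 listed genes 54 had such a row, among 18193 genes in all, and Ccnb1 (cyclin B1) was not analysed here. Total RNA of MLL-AF9 leukemic cells, mouse blood progenitors transformed by a fusion of the MLL and AF9 proteins, had been measured on 8 Affymetrix arrays in 4 groups of 2. The cells labelled shSirt1, with a hairpin against the deacetylase gene Sirt1, were taken after 21 days in 3 µM EPZ4777 and from DMSO. The shLUC cells, with a hairpin against luciferase, were taken after 6 days in 3 µM EPZ4777 and from DMSO. EPZ4777 inhibits DOT1L, the enzyme that methylates lysine 79 of histone H3, and DMSO is its solvent. All groups carried the MLL-AF9 fusion and grew in IMDM medium containing 15% serum and the cytokines SCF (20 ng/ml), IL-3 (10 ng/ml) and IL-6 (10 ng/ml).

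Time in drug and hairpin cannot be told apart, because each hairpin was treated for 1 length of time, and the labels give no time for DMSO. Each title also holds a code, A1 or A5 for shSirt1 and A4 or D11 for shLUC, which occurs once in EPZ4777 and once in DMSO. Whether the 2 arrays in each group stem from separate cultures is not stated, and p-values therefore measure the spread between these arrays alone, part or all of which may be technical. Sirt1 itself had a log2 intensity of 8.85 and 8.70 on the A1 arrays in EPZ4777 and DMSO and of 9.73 and 9.54 on the A5 arrays. In shLUC cells it had 9.44 and 9.83 in EPZ4777 and 9.46 and 9.58 in DMSO. Sirt1 was thus clearly lower than in shLUC cells on the A1 arrays only, and cells labelled shSirt1 minus shLUC cells came to -0.35 in EPZ4777 (adjusted p = 0.785) and -0.40 in DMSO (adjusted p = 0.928). The words "labelled shSirt1" are therefore used throughout. The 10 progenitor markers had summed intensities of 47120 to 58190 on the 8 arrays, though most had negative EPZ4777 differences, as given with the other markers. The markers of B cells, T and NK cells and red cells stayed between 81.9 and 218.7.

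Mitosis is driven by a kinase made of CDK1 and a mitotic cyclin, which is held back by inhibitory phosphates until CDC25 phosphatases remove them. Motors and microtubule proteins then build the spindle, kinetochores tie it to the centromeres, and a checkpoint holds the anaphase-promoting complex until every chromosome is attached. Many of these genes are transcribed in a wave in late S and G2 phase, through the CCAAT-binding factor NF-Y, the DREAM and MuvB complexes at the cell cycle genes homology region (CHR), B-MYB and FOXM1. Their RNA in bulk cells therefore depends both on how many cells divide and on how much RNA each holds. In these arrays fewer cells of a type and less RNA per cell cannot be told apart.

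In EPZ4777 most mitosis genes stood slightly above their level in DMSO, and none of the 54 fell by the test used, a limma fit over all 18193 genes with a gene called at a Benjamini-Hochberg adjusted p under 0.05. For 54 of 54 the 95% interval of the EPZ4777 effect excluded a fall of 1 on the log2 scale in both kinds of cells. This is common: intervals excluded both a fall and a rise of 1 for 87.5% of all genes in cells labelled shSirt1 and 86.2% in shLUC cells. Among the 54 members they did so for 52 and 53. The effects are log2 differences of intensity, EPZ4777 minus DMSO, and a fold is their linear form. In cells labelled shSirt1 at 21 days their median was 0.17, against 0.011 over all genes, with 47 positive and 7 negative. In shLUC cells at 6 days the median was 0.089, against -0.0025 over all genes, with 41 positive and 13 negative. The shLUC median turned to -0.00034 when each array was centred on the median of its gene rows, a setting chosen after seeing the data, and stayed above 0 under the other scalings tried. Neutrophil markers had medians of 3.32 and 2.31 in the same comparisons, and their part in these shifts was not tested.

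**Figure D1:**
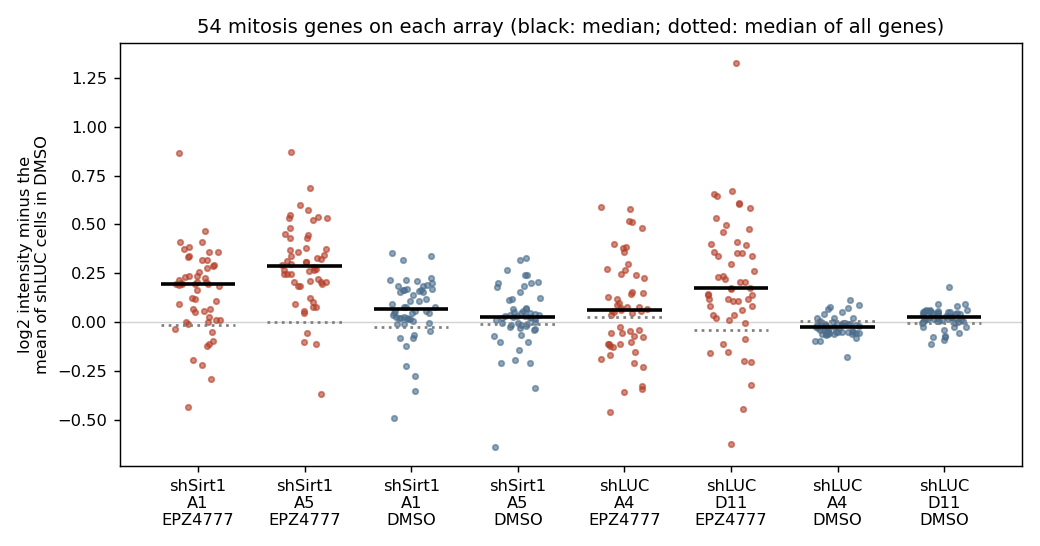
Log2 intensity of each of the 54 mitosis genes (points) on each of the 8 arrays, minus that gene's mean in shLUC cells in DMSO; black bars are the medians of the 54 genes and dotted bars the medians of all 18193 genes. The medians of the mitosis genes were 0.19 and 0.29 in cells labelled shSirt1 in EPZ4777 and 0.068 and 0.029 in DMSO, and 0.061 and 0.18 in shLUC cells in EPZ4777 and -0.026 and 0.026 in DMSO.

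Few of these shifts passed the adjusted threshold. In cells labelled shSirt1 0 of 54 members passed, where 0.396% of all genes did, and 6 of 54 had an unadjusted p under 0.05 (11.1% of members), where 15.8% of all genes did. In shLUC cells 2 of 54 rose (3.70%), Plk4 and Kif2c, where 1.62% of all genes rose, and 0 of 54 fell, where 2.36% of all genes did. At an unadjusted p under 0.05, 13 members were higher (24.1%) and 3 lower (5.56%) in shLUC cells, where 9.49% of all genes were higher and 12.2% lower. The mean of both EPZ4777 effects, which uses all 8 arrays, was tested too. By it 8 of 54 rose (14.8%), where 4.88% of all genes rose: Cdc25b, Plk1, Plk4, Kif22, Spc25, Kif2c, Kif20b and Ect2. None of the 54 fell by it, where 6.00% of all genes did. At an unadjusted p under 0.05, 16 members were higher by it (29.6%) and 1 lower (1.85%), where 12.4% of all genes were higher and 15.0% lower. All 54 members had a mean level above the median of all genes. With the genes at or below that median left out, 11 of 54 members rose by the mean effect, where 995 of 9096 genes did. In shLUC cells 4 of 54 then rose, where 493 of 9096 genes did. The members were chosen with earlier results of these data known, so these shares and counts describe the list and do not test it.

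Most of these calls were lost when single arrays were left out. Without either shLUC DMSO array 0 of 54 members passed in shLUC cells or by the mean effect, but then at most 6 of all 18193 genes did. The 2 calls in shLUC cells were also lost without the D11 EPZ4777 array, without either DMSO array of cells labelled shSirt1, and in a fit of the 4 shLUC arrays alone. The 8 calls by the mean effect were lost without the D11 EPZ4777 array, the A5 EPZ4777 array or the A5 DMSO array. Some of them remained without the A1 DMSO array or the A1 EPZ4777 array, and Nusap1 was added in the latter fit. Calls over all genes also fell in each of these fits, least without the A1 EPZ4777 array. Without that array the members' count by the mean effect fell by a larger share than the count over all genes. Whether the losses are particular to the members was not tested. The median of the members' mean effects was 0.15 with all arrays and 0.098 to 0.17 with any 1 array left out. Centring each array on its median left 3 of the 8, Cdc25b, Plk4 and Kif2c. Scaling also moved the split of all called genes: in shLUC cells it was 295 higher and 429 lower as deposited, 336 and 264 after quantile normalization, and 281 and 1037 after centring on gene rows. By the mean effect it was 888 higher and 1091 lower as deposited, and 731 and 1668 after centring on gene rows. Without the A4 EPZ4777 array 7 members rose by the mean effect and Bub1b fell, and 4 of these 8 calls were among the 8 above.

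The array values also show the direction of the members, here at the deposited scaling only. Centring on gene rows shifts the shLUC differences by -0.089, and the counts in this paragraph were not repeated with it. In cells labelled shSirt1 both EPZ4777 arrays lay above both DMSO arrays for 31 of 54 members, where this held for 26.0% of all genes, and below them for 2, where it held for 23.0%. In shLUC cells they lay above for 27 members, against 24.2% of all genes, and below for 9, against 28.2%. All 4 EPZ4777 arrays lay above all 4 DMSO arrays for 12 members, where this held for 8.05% of all genes. Those 12 were the 8 called genes with Cenpe, Incenp, Smc2 and Mki67. All 4 lay below for 2 members, Bub1b and Fzr1, where this held for 9.94% of all genes. Within each code, EPZ4777 minus DMSO was positive in all 4 codes for 27 members (18.7% of all genes), negative in all 4 for 2 (19.6%) and mixed for 25. The median of the members was 0.099 in A1, 0.25 in A5, 0.072 in A4 and 0.18 in D11.

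**Figure D2:**
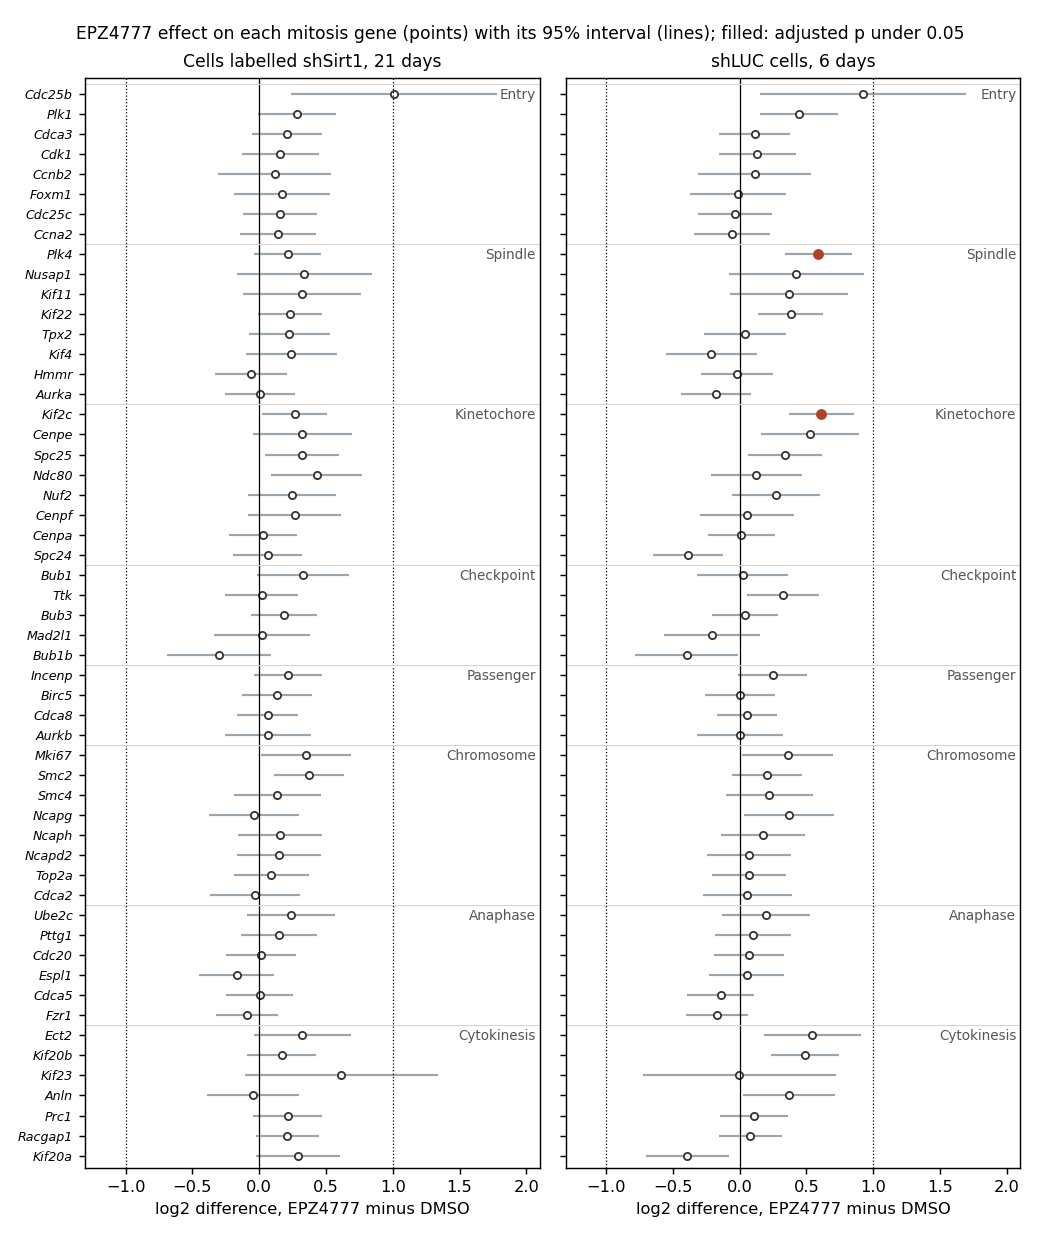
EPZ4777 minus DMSO in log2 intensity for the 54 mitosis genes by role, in cells labelled shSirt1 at 21 days (left) and shLUC cells at 6 days (right); points are limma estimates, lines their 95% intervals, filled points adjusted p under 0.05 and dotted lines a difference of 1. Effects ran between -0.30 (Bub1b) and 1.01 (Cdc25b) on the left and between -0.40 (Bub1b) and 0.92 (Cdc25b) on the right, and only Plk4 and Kif2c in shLUC cells are filled.

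Promoters of many of these genes hold sequence elements that the list did not use but that are known from such promoters. RefSeq promoters of GRCm38.p6, each from 250 bases before to 50 bases after an annotated start, were matched by symbol for 45 of the 55 genes, which have 48 of them. Incenp, Aurkb, Ccna2, Cdca2, Spc24, Foxm1, Smc4, Tpx2, Kif20a and Cdc25c had no entry. The CHR was searched as TTTGAA or TTCGAA and the CCAAT box as CCAAT, each on both strands, and in 1 member promoter a CHR and a CCAAT box overlapped. A CHR stood in 38 of the 48 member promoters (79.2%), against 19.2% of all 32851 promoters, and a CCAAT box in 36 (75%), against 37.4%. Both stood in 33 (68.8%), against 7.52%, and neither in 7 (14.6%), against 50.9%. Counting TTTGAA but not TTCGAA as a CHR, it stood in 36 (75%), against 17.9%. By gene, with either form counted, 35 of the 45 had a CHR, 33 a CCAAT box and 30 both. The median GC content of member promoters was 59.0%, against 52.7%. In the 250 bases before the start alone, a CHR stood in 41.7% of member promoters, against 17.1%. A match describes the letters and is neither a bound site nor a cause.

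**Figure D3:**
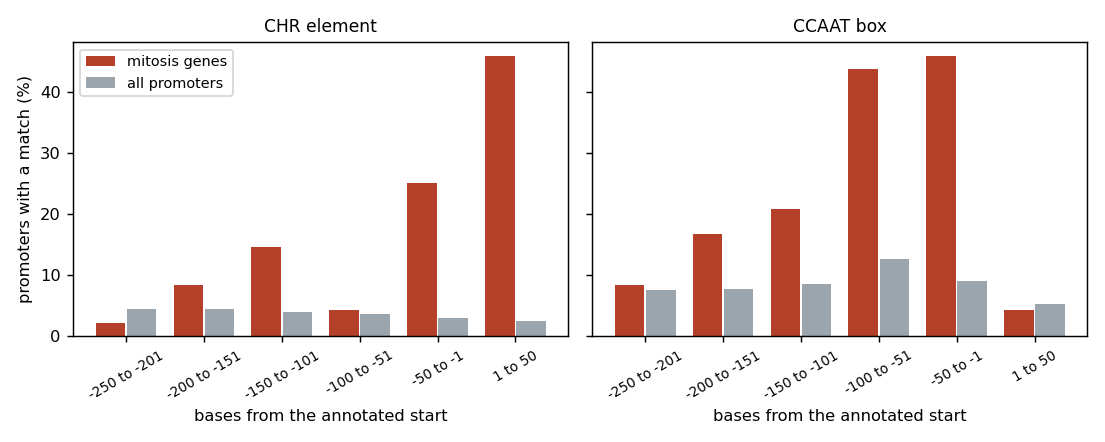
Share of promoters with a CHR (left) or a CCAAT box (right) beginning in each window of 50 bases around the annotated start, for the 48 promoters of mitosis genes (red) and all 32851 promoters (grey). A CHR began in bases 1 to 50 after the start in 45.8% of member promoters, against 2.46% of all, and a CCAAT box in the 50 bases before it in 45.8%, against 9.03%.

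Of the promoters below, Cdc25b and Plk1 are shown because their RNA rose by the mean effect and both elements lie near the start, and Cdk1 because it holds the elements and its RNA passed no test. Kif2c and Plk4 are shown because they rose in shLUC cells while the promoter printed for Kif2c holds only a CHR and that for Plk4 neither element. The promoters printed for Kif2c and Cdc25b lie inside the spans of their genes, chr4:117159633-117182624 and chr2:131186436-131198511, and not at the outer 5′ end. The sequences are RefSeq's, GRCm38.p6, 5′ to 3′ on the gene's strand, with CHR and CCAAT matches in capitals. Cdc25b is chr2:131186698-131186997, plus strand, Plk1 chr7:122159185-122159484, plus strand, Cdk1 chr10:69352863-69353162, minus strand, Kif2c chr4:117178723-117179022, minus strand, and Plk4 chr3:40799701-40800000, plus strand.
Cdc25b: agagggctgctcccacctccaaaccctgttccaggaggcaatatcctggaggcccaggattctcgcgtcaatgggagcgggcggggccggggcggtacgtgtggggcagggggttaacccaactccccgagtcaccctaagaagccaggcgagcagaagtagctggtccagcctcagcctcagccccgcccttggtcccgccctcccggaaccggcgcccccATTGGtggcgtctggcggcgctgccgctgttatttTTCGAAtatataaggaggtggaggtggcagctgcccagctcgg
Plk1: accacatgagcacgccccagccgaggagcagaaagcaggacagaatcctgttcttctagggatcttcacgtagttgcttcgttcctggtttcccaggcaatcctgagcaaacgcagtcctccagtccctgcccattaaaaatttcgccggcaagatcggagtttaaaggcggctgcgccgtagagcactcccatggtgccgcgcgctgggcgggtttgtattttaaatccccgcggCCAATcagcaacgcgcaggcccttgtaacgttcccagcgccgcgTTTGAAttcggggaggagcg
Cdk1: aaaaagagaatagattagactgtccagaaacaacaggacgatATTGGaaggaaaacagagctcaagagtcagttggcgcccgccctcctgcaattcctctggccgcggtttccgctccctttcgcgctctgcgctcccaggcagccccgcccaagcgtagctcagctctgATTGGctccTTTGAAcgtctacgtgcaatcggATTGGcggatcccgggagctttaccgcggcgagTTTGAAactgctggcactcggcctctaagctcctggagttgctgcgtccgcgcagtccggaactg
Kif2c: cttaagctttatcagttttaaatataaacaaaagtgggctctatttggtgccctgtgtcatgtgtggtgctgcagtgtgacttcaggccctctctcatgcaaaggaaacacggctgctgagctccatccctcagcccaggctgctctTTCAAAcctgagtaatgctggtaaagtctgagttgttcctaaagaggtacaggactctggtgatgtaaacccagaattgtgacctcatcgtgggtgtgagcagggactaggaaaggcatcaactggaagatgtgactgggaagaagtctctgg
Plk4: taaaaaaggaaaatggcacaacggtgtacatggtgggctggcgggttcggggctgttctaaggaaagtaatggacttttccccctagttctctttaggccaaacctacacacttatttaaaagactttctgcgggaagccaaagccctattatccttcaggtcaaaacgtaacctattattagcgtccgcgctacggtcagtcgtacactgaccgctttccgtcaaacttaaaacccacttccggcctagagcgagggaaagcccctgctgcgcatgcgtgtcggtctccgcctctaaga
In Cdc25b the CCAAT box began at -28 and the CHR at 8, counted from the start with the base before it as -1 and the first base after it as 1. In Plk1 they began at -14 and 31. In Cdk1 the CHRs began at -71 and -15 and the CCAAT boxes at -208, -80 and -48, and in Kif2c the CHR began at -103.

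Among the genes of mitotic entry Cdc25b and Plk1 rose and the other 6 passed no test. Below, array values are log2 intensities in the order A1 and A5 for cells labelled shSirt1 and A4 and D11 for shLUC cells, and levels are not compared between genes. Cdc25b, a phosphatase that removes the inhibitory phosphates of CDK1, had 7.998 and 7.82 in EPZ4777, against 7.30 and 6.49 in DMSO, in cells labelled shSirt1. In shLUC cells Cdc25b had 7.65 and 8.46 in EPZ4777, against 7.04 and 7.23 in DMSO. Every EPZ4777 array lay above every DMSO array, with wide gaps between arrays of a group. The Cdc25b effect was 1.01 (95% interval 0.24 to 1.78, adjusted p = 0.229) in cells labelled shSirt1 and 0.92 (0.15 to 1.69, adjusted p = 0.158) in shLUC cells, and their mean was 0.97, or 1.95-fold (0.42 to 1.51, adjusted p = 0.0435).

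Plk1, the kinase that activates CDC25 and acts on centrosomes and kinetochores, had 9.23 and 9.45 in EPZ4777, against 9.04 and 9.07 in DMSO, in cells labelled shSirt1. In shLUC cells Plk1 had 9.38 and 9.55, against 8.96 and 9.08. All EPZ4777 arrays were again the higher ones, and the mean effect of Plk1 was 0.37, or 1.29-fold (0.16 to 0.57, adjusted p = 0.0435). Cdk1, the mitotic kinase itself, had 11.41 and 11.28 in EPZ4777, against 11.31 and 11.07 in DMSO, in cells labelled shSirt1, and 11.19 and 11.27, against 11.09 and 11.10, in shLUC cells. The shLUC arrays of Cdk1 did not overlap, those labelled shSirt1 did, and the mean effect of 0.15 (-0.06 to 0.35) did not pass (adjusted p = 0.329). Foxm1, a transcription factor of the late cell cycle genes, had 7.46 and 7.44, against 7.32 and 7.24, in cells labelled shSirt1, and 7.01 and 7.44, against 7.18 and 7.30, in shLUC cells. The shLUC arrays of Foxm1 overlapped, and its mean effect was 0.08 (-0.18 to 0.34, adjusted p = 0.705). Ccna2 (cyclin A2) had 11.44 and 11.65, against 11.32 and 11.49, in cells labelled shSirt1, and 11.33 and 11.44, against 11.44 and 11.44, in shLUC cells. The arrays of Ccna2 overlapped in cells labelled shSirt1, and its mean effect of 0.04 (-0.16 to 0.24, adjusted p = 0.815) was the smallest of this group. Ccnb2, Cdc25c and Cdca3, the other 3, had mean effects between 0.06 and 0.16.

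Of 8 spindle genes Plk4 and Kif22 rose. Plk4, the kinase that starts centriole duplication, had 10.77 and 10.94 in EPZ4777, against 10.59 and 10.69 in DMSO, in cells labelled shSirt1. In shLUC cells it had 10.95 and 10.95, against 10.36 and 10.37, so the 2 arrays of each shLUC group differed far less from each other than EPZ4777 did from DMSO. The Plk4 effect was 0.59, or 1.5-fold (0.34 to 0.84, adjusted p = 0.0393), in shLUC cells, and 0.21 (-0.04 to 0.47, adjusted p = 0.380) in cells labelled shSirt1. The other 2 probe sets of Plk4 had the same sign in shLUC cells but differences of only 0.16 and 0.06. Kif22, a chromosome-arm kinesin, had 11.06 and 11.08, against 10.86 and 10.82, in cells labelled shSirt1, and 11.11 and 11.07, against 10.78 and 10.63, in shLUC cells. Its arrays did not overlap in either, and the mean effect of Kif22 was 0.31, or 1.24-fold (0.13 to 0.48, adjusted p = 0.0424). The remaining probe sets of Kif22 had mean effects of 0.22 and 0.15. Kif4, a chromosome-bound kinesin on the X chromosome, had 8.87 and 8.90, against 8.80 and 8.48, in cells labelled shSirt1, where EPZ4777 lay above DMSO. In shLUC cells Kif4 had 8.34 and 8.60, against 8.68 and 8.70, where EPZ4777 lay below it. The mean effect of Kif4 was 0.01 (-0.23 to 0.26, adjusted p = 0.951). The other spindle genes, Aurka, Tpx2, Nusap1, Hmmr and Kif11, had mean effects between -0.09 (Aurka) and 0.38 (Nusap1), and none passed.

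Among 8 kinetochore and centromere genes Kif2c and Spc25 rose. Kif2c, a kinesin that takes microtubules apart to correct wrong attachments, had 9.496 and 9.59 in EPZ4777, against 9.32 and 9.24 in DMSO, in cells labelled shSirt1. In shLUC cells Kif2c had 9.69 and 9.76, against 9.07 and 9.16. The groups did not overlap in either kind of cells, and the shLUC effect of 0.61, or 1.53-fold (0.37 to 0.86, adjusted p = 0.0362), had the smallest p of all members in these cells. In cells labelled shSirt1 it was 0.26 (0.02 to 0.51, adjusted p = 0.291). The other 3 probe sets of Kif2c had 0.10, -0.20 and 0.28 in shLUC cells. Spc25, a subunit of the NDC80 complex that binds microtubules, had 10.02 and 10.13, against 9.85 and 9.67, in cells labelled shSirt1, and 9.95 and 10.08, against 9.63 and 9.73, in shLUC cells. Its arrays did not overlap, and the mean effect of Spc25 was 0.33, or 1.26-fold (0.13 to 0.52, adjusted p = 0.0497). The remaining probe set of Spc25 had a mean effect of 0.42. Cenpa, the histone H3 variant that marks centromeres, had 11.55 and 11.69, against 11.62 and 11.56, in cells labelled shSirt1, and 11.51 and 11.65, against 11.55 and 11.58, in shLUC cells. The Cenpa groups overlapped in both, and the mean effect was 0.02 (-0.16 to 0.20, adjusted p = 0.892). Cenpe, Cenpf, Ndc80 and Nuf2 had mean effects between 0.16 and 0.43 without passing. Spc24, the partner of Spc25, had the one negative mean effect of the group (-0.16), with 9.65 and 9.83, against 9.70 and 9.66, in cells labelled shSirt1, and 9.31 and 9.19, against 9.63 and 9.65, in shLUC cells.

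None of the 5 checkpoint genes and none of the 4 genes of the chromosomal passenger complex passed. Bub1b, which encodes BUBR1, an inhibitor of the anaphase-promoting complex, had 9.32 and 9.17 in EPZ4777, against 9.58 and 9.52 in DMSO, in cells labelled shSirt1. In shLUC cells Bub1b had 9.37 and 8.92, against 9.62 and 9.47. All 4 EPZ4777 arrays lay below all 4 DMSO arrays, and its 3 probe sets had negative differences in both kinds of cells. The mean effect of Bub1b was -0.35 (-0.62 to -0.07), the most negative of all members, and did not pass (adjusted p = 0.104). Mad2l1 (MAD2), which forms the checkpoint complex with BUBR1, had 10.999 and 11.38, against 11.07 and 11.28, in cells labelled shSirt1, and 11.08 and 11.09, against 11.24 and 11.35, in shLUC cells. Only the shLUC groups of Mad2l1 did not overlap, and the mean effect was -0.09 (-0.35 to 0.16, adjusted p = 0.648). Bub3, which carries BUB1 and BUBR1 to kinetochores, had 12.17 and 12.25, against 12.02 and 12.03, in cells labelled shSirt1, and 11.98 and 12.12, against 11.96 and 12.05, in shLUC cells. Its mean effect was 0.11 (-0.06 to 0.29, adjusted p = 0.383), while the other 4 probe sets of Bub3 had negative mean effects. The kinases Bub1 and Ttk had mean effects of 0.17 and 0.17.

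Aurkb (Aurora B), the kinase of the passenger complex, had 9.87 and 10.00 in EPZ4777, against 10.03 and 9.71 in DMSO, in cells labelled shSirt1, and 9.62 and 9.74, against 9.70 and 9.65, in shLUC cells. These groups overlapped in both, and the mean effect of Aurkb was 0.04 (-0.19 to 0.26, adjusted p = 0.857). Incenp, the scaffold of that complex, had 11.69 and 11.76, against 11.54 and 11.47, in cells labelled shSirt1, and 11.65 and 11.83, against 11.49 and 11.50, in shLUC cells. All EPZ4777 arrays of Incenp were the higher ones, yet the mean effect of 0.23 (0.05 to 0.41) did not pass (adjusted p = 0.104), and 3 of its 5 probe sets shared that sign. Birc5 (survivin) and Cdca8 (borealin) had mean effects of 0.07 and 0.06.

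None of the 8 chromosome genes passed, though each had a positive mean effect. Mki67, whose protein Ki-67 coats mitotic chromosomes and marks dividing cells, had 12.24 and 12.53 in EPZ4777, against 12.03 and 12.05 in DMSO, in cells labelled shSirt1. In shLUC cells Mki67 had 12.24 and 12.51, against 11.96 and 12.06. Every EPZ4777 array lay above every DMSO array, and the mean effect of Mki67 was 0.36, or 1.28-fold (0.12 to 0.60, adjusted p = 0.0696). Top2a, the topoisomerase that untangles sister DNA, had 12.06 and 12.32, against 12.12 and 12.08, in cells labelled shSirt1, and 12.12 and 12.14, against 12.03 and 12.09, in shLUC cells. The Top2a groups overlapped in cells labelled shSirt1, and the mean effect was 0.08 (-0.11 to 0.28, adjusted p = 0.593). Cdca2, which brings a phosphatase to chromosomes at the end of mitosis, had 9.45 and 9.62, against 9.57 and 9.56, in cells labelled shSirt1, and 9.42 and 9.78, against 9.53 and 9.57, in shLUC cells. Its groups overlapped in both, with a mean effect of 0.01 (-0.22 to 0.25, adjusted p = 0.953). The condensin subunits Smc2, Smc4, Ncapd2, Ncapg and Ncaph had mean effects between 0.11 and 0.29, the highest for Smc2 (adjusted p = 0.0605).

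No gene of anaphase and mitotic exit passed, and 3 of these 6 had negative mean effects. Ube2c, the ubiquitin-conjugating enzyme of the anaphase-promoting complex, had 12.27 and 12.54 in EPZ4777, against 12.16 and 12.17 in DMSO, in cells labelled shSirt1, and 12.05 and 12.33, against 11.96 and 12.02, in shLUC cells. Within each kind of cells the groups of Ube2c did not overlap, and the mean effect was 0.22 (-0.01 to 0.45, adjusted p = 0.205). Cdc20, the activator of that complex in mitosis, had 11.85 and 11.93, against 11.81 and 11.95, in cells labelled shSirt1, and 11.76 and 11.64, against 11.68 and 11.57, in shLUC cells. Its groups overlapped in both, with a mean effect of 0.04 (-0.14 to 0.23, adjusted p = 0.790). Fzr1, which encodes the activator CDH1 of late mitosis and G1, had 7.65 and 7.72, against 7.78 and 7.77, in cells labelled shSirt1, and 7.58 and 7.62, against 7.73 and 7.81, in shLUC cells. All EPZ4777 arrays of Fzr1 lay below all DMSO arrays by small steps, and the mean effect was -0.13 (-0.29 to 0.03, adjusted p = 0.276). Espl1 (separase), Pttg1 (securin) and Cdca5 (sororin) had mean effects of -0.06, 0.12 and -0.07.

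Of 7 cytokinesis genes Ect2 and Kif20b rose. Ect2, the exchange factor that switches on RhoA at the division plane, had 10.11 and 10.13 in EPZ4777, against 10.01 and 9.59 in DMSO, in cells labelled shSirt1. In shLUC cells Ect2 had 10.28 and 10.40, against 9.73 and 9.86. No arrays overlapped, and the mean effect of Ect2 was 0.43, or 1.35-fold (0.18 to 0.69, adjusted p = 0.0485). Kif20b, a kinesin of the midzone, had 9.61 and 9.64, against 9.39 and 9.51, in cells labelled shSirt1, and 9.83 and 9.77, against 9.23 and 9.39, in shLUC cells. Its groups did not overlap, and the mean effect of Kif20b was 0.33, or 1.26-fold (0.15 to 0.51, adjusted p = 0.0417). The remaining probe sets of Kif20b had mean effects of 0.19 and, at low intensity, 0.095 and 0.066. Kif20a, the related kinesin that carries the passenger complex to the midzone, had 9.33 and 9.61, against 9.23 and 9.13, in cells labelled shSirt1, and 8.77 and 8.91, against 9.17 and 9.29, in shLUC cells. The EPZ4777 arrays of Kif20a thus lay above DMSO in cells labelled shSirt1 and below it in shLUC cells, and its mean effect was -0.05 (-0.27 to 0.17, adjusted p = 0.791). Prc1, Racgap1, Anln and Kif23 had mean effects between 0.14 and 0.31, and the Kif23 interval was the widest of these (-0.20 to 0.82).

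**Figure D4:**
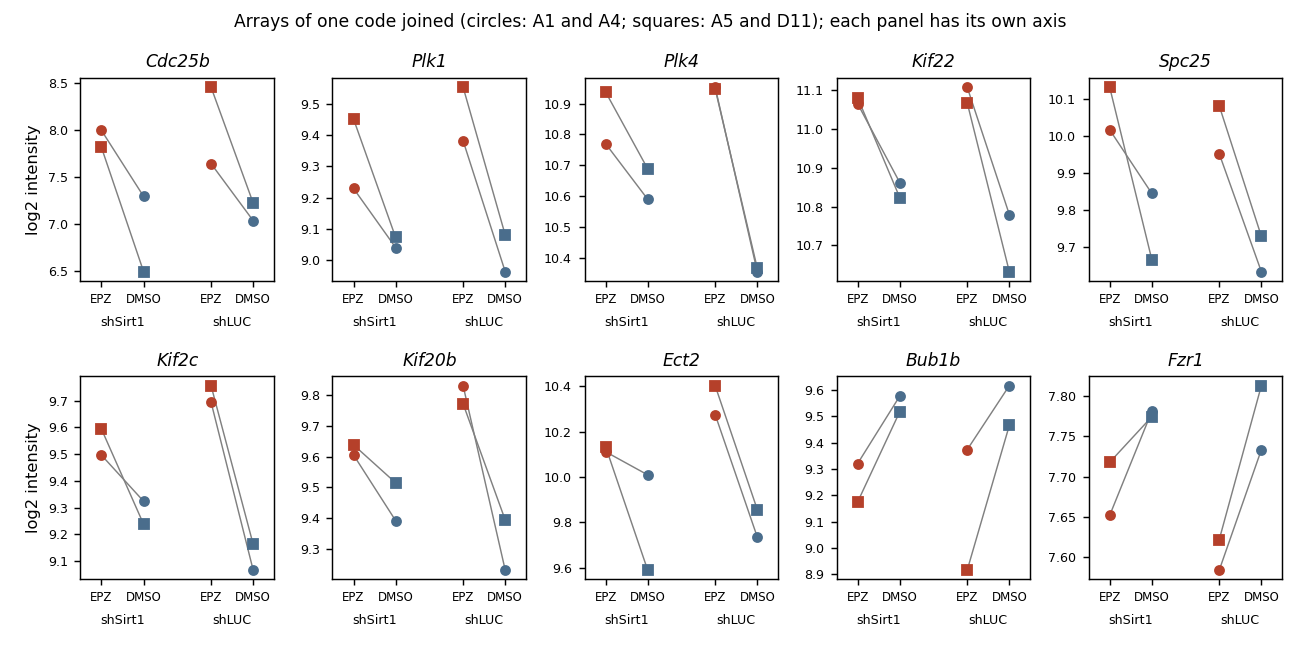
Log2 intensity of the 8 mitosis genes that rose by the mean effect, and of Bub1b and Fzr1, on each array; red is EPZ4777 and blue DMSO, cells labelled shSirt1 left and shLUC cells right in each panel, circles codes A1 and A4, squares A5 and D11, and lines join arrays of 1 code. In the first 8 panels all red points lie above all blue ones, and in the last 2 below them.

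The 2 kinds of cells were then compared directly. By the difference of the EPZ4777 effects, that in cells labelled shSirt1 minus that in shLUC cells, 0 of 54 members passed, as did 0% of all genes. At an unadjusted p under 0.05 the count was 4 (7.41%), where 6.71% of all genes reached it. These were Kif20a (0.68, 95% interval 0.24 to 1.12), Spc24 (0.45, 0.08 to 0.82), Kif2c (-0.35, -0.69 to -0.00075) and Plk4 (-0.37, -0.73 to -0.02), with adjusted p of 0.622 to 0.741. The intervals leave room for differences of this size, so the effects in the 2 kinds of cells are not shown to be alike. In EPZ4777, cells labelled shSirt1 minus shLUC cells gave 0 of 54 calls, where 0.308% of all genes were called, and 5 members with an unadjusted p under 0.05 (9.26%), where 13.3% of all genes had one. Those 5 were Kif20a (0.63), Spc24 (0.48), Kif4 (0.41), Cdc25c (0.32) and Anln (-0.64). In DMSO the same difference gave 0 of 54 calls, where 0% of all genes were called, and 1 member with an unadjusted p under 0.05 (1.85%), Plk4 with 0.28, where 5.41% of all genes had one. These comparisons share arrays with the EPZ4777 comparisons.

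Other genes of mitosis, 93 measured of 95 listed, had medians nearer to those of all genes, a comparison that was not tested. Their median effect was 0.083 in cells labelled shSirt1, where 0 rose and Mad2l2 fell, and -0.018 in shLUC cells, where 0 rose and Cenpm, Nek2, Mad2l2 and Trip13 fell. Nek2, a centrosome kinase, had 9.10 and 9.18 in EPZ4777, against 9.18 and 9.22 in DMSO, in cells labelled shSirt1, and 8.60 and 8.67, against 9.43 and 9.42, in shLUC cells. Its effect was -0.79 in shLUC cells (adjusted p = 0.0252) and -0.06 in cells labelled shSirt1. Mad2l2, a relative of Mad2l1 that also takes part in DNA repair, fell by 0.76 in cells labelled shSirt1 (adjusted p = 0.0408) and fell by 0.71 in shLUC cells (adjusted p = 0.0290). By the mean effect 2 of the 93 rose, Cenpl and Iqgap3, where 4.88% of all genes rose. By it 4 fell, Cenpm, Cenpp, Nek2 and Mad2l2, where 6.00% of all genes fell. In cells labelled shSirt1 0.396% of all genes passed, and in shLUC cells 1.62% rose and 2.36% fell. The 10 genes of condensin II and cytokinesis had the highest median of these lists, 0.24 in cells labelled shSirt1 and 0.27 in shLUC cells, and the 23 genes of the anaphase-promoting complex and cohesin the lowest, -0.0051 and -0.12. Lists differ in how many genes they hold and were not tested against each other.

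Genes of DNA replication, the work of S phase, had mostly negative differences. In shLUC cells 30 of 32 had a negative difference, with a median of -0.24, and 2 passed: Cdc6 fell by 0.60 and Mcm10 fell by 0.51, both of which help load or start the replication machinery. In cells labelled shSirt1 20 of 32 were negative, with a median of -0.032, and 0 passed. In the mean of both effects 29 of 32 were negative and 3 fell, Cdc6, Mcm10 and Gins1. Beside the counts of this paragraph, 0.396% of all genes passed in cells labelled shSirt1, and 1.62% rose and 2.36% fell in shLUC cells. By the mean effect 4.88% of all genes rose and 6.00% fell. Of the factors that transcribe cell cycle genes, 24 measured, 0 passed in either kind of cells alone. By the mean effect Rb1, E2f8 and Lin54 rose and E2f6 fell. Mybl2 (B-MYB) had 0.10 in cells labelled shSirt1 and -0.15 in shLUC cells, Myc had -0.03 and 0.43, and neither passed. Of 16 CDK inhibitors and G1 genes, 1 rose and 1 fell in cells labelled shSirt1, 1 rose and 2 fell in shLUC cells, and 4 rose and 3 fell by the mean effect, Cdkn2d and Ccnd3 among those that rose by it. Cdkn2c, an inhibitor of CDK4 and CDK6, fell by 2.57 (adjusted p = 0.0399) in cells labelled shSirt1 and fell by 2.87 (adjusted p = 0.0244) in shLUC cells. Btg2, an antiproliferative gene, rose by 1.08 (adjusted p = 0.0421) and by 0.72 (adjusted p = 0.0451) in the same cells.

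**Figure D5:**
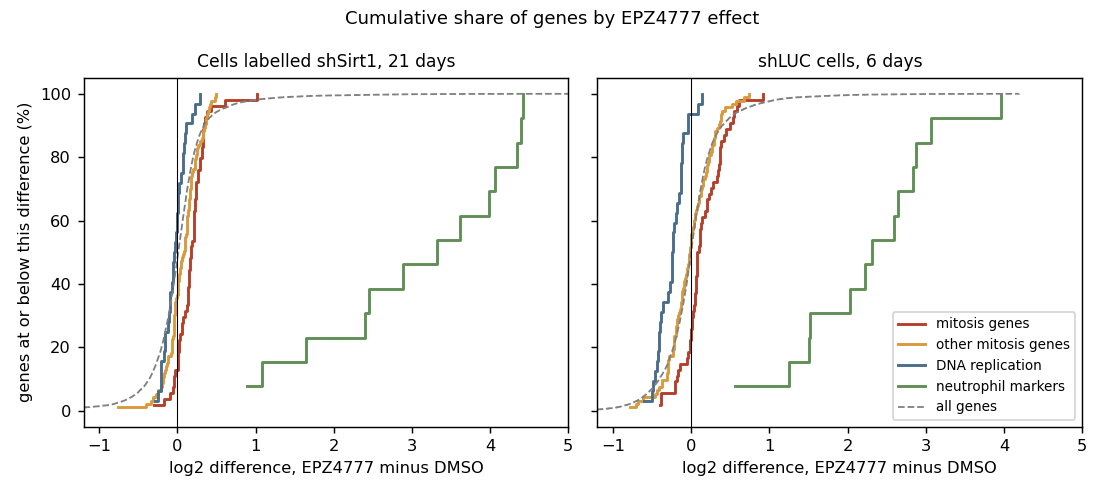
Cumulative share of genes by EPZ4777 minus DMSO in log2 intensity, in cells labelled shSirt1 at 21 days (left) and shLUC cells at 6 days (right), for 54 mitosis genes, 93 other mitosis genes, 32 DNA replication genes, 13 neutrophil markers and all 18193 genes (dashed; values beyond the axis are cut off). The mitosis genes lie right of all genes, with medians of 0.17 and 0.089, and the neutrophil markers far right, with medians of 3.32 and 2.31.

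Markers of mature cells moved with EPZ4777 beside the mitosis genes. All 13 measured neutrophil markers had positive differences in both kinds of cells, with medians of 3.32 and 2.31. Of these markers 1 (Olfm4) rose in cells labelled shSirt1, where 0.396% of all genes passed, and 4 in shLUC cells, where 1.62% rose. Their summed intensity was 77530 to 132600 in EPZ4777, against 12020 to 32720 in DMSO, in cells labelled shSirt1, and 79900 to 124900, against 29350 to 38700, in shLUC cells. Macrophage markers, 11 measured, were positive for 3 in cells labelled shSirt1, where 0 rose, and for 11 in shLUC cells, where 6 rose. Their sums were 636.6 to 896.7, against 610.7 to 1339, and 3810 to 5576, against 2121 to 2670. Of the 10 progenitor markers 8 had negative differences in cells labelled shSirt1 and 7 in shLUC cells. Meis1, a homeobox gene that MLL fusions keep active, had -2.68 in cells labelled shSirt1 (adjusted p = 0.0694) and fell by 3.96 in shLUC cells (adjusted p = 0.0244). Stroma markers summed to 999.8 on one DMSO array of cells labelled shSirt1 and to 273.6 to 464.7 on the other 7. Megakaryocyte markers summed to 493.6 to 566.6, against 346 to 422.2, in cells labelled shSirt1, and to 959 to 1154, against 333.8 to 350.4, in shLUC cells, where Pf4 rose. Mast cell markers summed to 336.2 to 495, against 267.3 to 312.5, and to 336.7 to 374.1, against 244.9 to 263.9, in the same cells. No marker is at 0, since RMA values are all positive. The part of these cells in the values of the mitosis genes was not tested.

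Probe sets of one gene did not always point the same way. The 54 members have 127 probe sets, and 38 members have 2 or more. By the mean effect all probe sets of a gene had the same sign for 23 of these 38. Of the 127 probe sets, tested each by itself, 7 rose (5.51%) and 1 fell (0.787%), where 3.88% of all 34945 probe sets rose and 5.73% fell. The one that fell was 1 of the 5 probe sets of Hmmr, a spindle protein, with -0.51 (adjusted p = 0.0198). The other 4 probe sets of Hmmr had mean effects between -0.24 and -0.02. A second probe set of Anln, which encodes the cytokinesis protein anillin, rose by 0.70 in shLUC cells (adjusted p = 0.0368), while the one used above had 0.37.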

How the data were processed

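The authors deposited intensity values; the submitters' processing notes name RMA, a method that corrects background, normalizes arrays and summarises probes, and shrinks dim signals. Not given in the sources used here are its version, the chip definition and which arrays were run as one set. The values reach 24500, so their scale was read as linear, and log2 was taken with no pseudocount. Of 45101 probe sets 64 controls were left out, 34945 had 1 symbol in the platform annotation, 932 several, and 9160 are unnamed here. Each of 18193 genes is its probe set with the highest mean.

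All 8 arrays were fitted as 4 group means in limma 3.58.1 (R 4.3.3; 4 residual degrees of freedom) with eBayes, two-sided, and Benjamini-Hochberg adjustment over all genes, giving 6 comparisons. Array number, 2 a group, limits the precision. Promoters were searched in Python 3.11.15 with pandas 2.3.3, and figures used matplotlib 3.10.9.

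Arrays are given for members past the threshold in any comparison, for the largest and smallest mean effect in absolute size in each role, and for fixed genes, Cdk1, Plk1, Aurkb, Foxm1, Cdc20, Bub3, Fzr1, Mki67 and Top2a (Ccnb1 was on that list and was not analysed here). Of other lists up to 4 passing genes and Sirt1, Cdkn2c, Myc and Mybl2 could be named; Spc24, Anln, Hmmr, Cenpe and others named as list members were picked after their values were seen. Members, lists and roles were chosen with earlier results of these data known. The alternatives were other normalizations, probe set rules, a filter on dim genes, variance models, thresholds, the code as a block, and each array left out.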

Additional observations from a re-analysis of the deposited data

Results flagged for a closer look

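For 3 of the 25 members chosen by rule for array values, the EPZ4777 difference had one sign in both codes of cells labelled shSirt1 and the opposite sign in both codes of shLUC cells. Kif20a had 0.10 and 0.48 in A1 and A5 and -0.40 and -0.38 in A4 and D11, and the effects differed by 0.68. Kif4 had 0.07 and 0.42 and then -0.33 and -0.09, a difference of 0.45. Ccna2 had 0.12 and 0.16 and then -0.11 and -0.01, a difference of 0.20. None passed the test of the difference in limma over all genes, with adjusted p of 0.622, 0.755 and 0.872 in this order. Such opposite signs were seen for 5 of the 54 members (9.26%) and for 11.2% of all genes, so the members' share lay below that of all genes. The groups of 2 arrays are too small for a test for outlying arrays.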

How the results depend on the processing

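The code as a fixed replicate block gave 3 calls among the members in shLUC cells (Cenpe added) and 0 in cells labelled shSirt1. By the mean effect it gave 10, adding Cenpe and Mki67 as risen and Bub1b as fallen (adjusted p = 0.0491) and losing Spc25. As a random replicate block it gave 8 and 13, 1 of each fallen (Spc24 and Bub1b). Same-code arrays deviated together at 0.378 (labelled shSirt1) and 0.293 (shLUC). Unrelated codes gave 0.401 in EPZ4777 and 0.040 in DMSO, with a sign set by an arbitrary order of the codes. These values therefore do not decide whether the codes pair the arrays. The codes are not taken to pair them because no label says what a code shares. The 2 calls in shLUC cells became 1 (Anln) when probe sets were averaged per gene, 4 without dim genes, 4 with every probe set by itself (Hmmr fallen, Anln, Kif2c and Plk4 risen), 7 at adjusted p under 0.1 (Spc24 fallen, 6 risen), 0 at adjusted p under 0.01, and 0 with only the arrays compared. The 8 calls by the mean effect became 4 with the mean of probe sets, 3 with either centring, 11 with a trended variance or without dim genes, and 0 at adjusted p under 0.01. Leaving out each array gave 0 to 2 calls in shLUC cells and 0 to 8 by the mean effect, and shLUC medians of 0.061 to 0.18. Centring on gene rows, added after seeing the data, gave a shLUC median of -0.00034. With the mean of probe sets 1 member, Anln, was called lower in cells labelled shSirt1 than in shLUC cells in EPZ4777. The CHR share was 41.7% with only the 250 bases before the start. Over all genes, the 295 higher and 429 lower calls in shLUC cells became 660 and 656 with the fixed and 999 and 1380 with the random replicate block, 493 and 931 without dim genes, 281 and 1037 with gene rows centred, and 193 and 209 with only the arrays compared. The 39 higher and 33 lower calls in cells labelled shSirt1 became 239 and 165 with the fixed and 266 and 238 with the random replicate block, and 0 with only the arrays compared. By the mean effect, 888 and 1091 became 1630 and 2088 with the random and 1363 and 1562 with the fixed replicate block. They became 772 and 1072 with the mean of probe sets and 795 and 1445 with each array centred on its median. With a trended variance they became 941 and 1182, and without dim genes, where 9096 genes were tested, 995 and 1572. The cause of these changes was not tested. With 2 arrays a group, low power limits every comparison.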
